A study of Mus musculus with 4 samples.

Results

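A set of 8 genes of cholesterol synthesis and its control by SREBP2 were followed in alveolar epithelial type II (AT2) cells, which line the lung alveolus and secrete surfactant. They were the rows of the deposited table whose gene symbol was Hmgcs1, Idi1, Fdps, Fdft1, Sqle, Lss, Insig1 or Srebf2, 8 of 22565 genes, with 1 row each, and all 8 passed the filter on low values. Flow sorting gave the cells, from untreated mice at 6 months of age, and RNA was sequenced from 2 wild-type (WT) libraries and 2 libraries labelled knockout (KO). The genotype field names Fbxo45 for KO replicate 1 and Fbxo46 for KO replicate 2, the titles put both in 1 KO group, and the growth protocol speaks of Fbxo45-cKO mice; the deleted part of the gene, the driver of the deletion and the number of animals per library were not stated in what was used here. Fbxo45 was at 4.60 (WT replicate 1) and 5.91 (WT replicate 2) FPKM, compared with 4.41 (KO replicate 1) and 7.58 (KO replicate 2) FPKM (FPKM, the deposited fragments scaled by transcript length and library size). Fbxo46 was at 4.13 and 3.79 FPKM in the WT pair, with KO replicate 1 at 3.82 FPKM and KO replicate 2 at 4.80 FPKM. Neither gene separated the groups, so every direction below is that of libraries labelled KO.

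Cells make cholesterol from acetyl-CoA. The mevalonate arm of the pathway ends in farnesyl diphosphate, which is also the source of isoprenoids, and the sterol arm turns it through squalene and lanosterol into cholesterol. SREBP2, the product of Srebf2, is held in the endoplasmic reticulum membrane with its escort SCAP by INSIG proteins while sterol is plentiful. When sterol falls, SCAP carries it to the Golgi, proteases release its transcription factor domain, and that domain binds sterol regulatory elements in the promoters of synthesis genes, of Insig1 and of Srebf2 itself. AT2 cells are rich in lipid synthesis, and cholesterol is a component of surfactant.

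The promoters of 3 members are shown because they belong to a synthesis enzyme, to the factor and to its retention protein, which differ in the letters they hold; each runs from 250 bases before to 50 bases after the annotated start site (RefSeq, GRCm38.p6, sense strand of the gene). Capitals mark matches on either strand to TCACNCCAC, TCACCNCAC or TCACCCCA (sterol regulatory element cores, which overlap one another), CCAAT (the NF-Y box, read as its reverse where the match is on the other strand) and CACGTG (an E-box). TCACCCCA and CACGTG were added after the promoters had been read.
Hmgcs1, chr13:119690101-119690400, plus strand: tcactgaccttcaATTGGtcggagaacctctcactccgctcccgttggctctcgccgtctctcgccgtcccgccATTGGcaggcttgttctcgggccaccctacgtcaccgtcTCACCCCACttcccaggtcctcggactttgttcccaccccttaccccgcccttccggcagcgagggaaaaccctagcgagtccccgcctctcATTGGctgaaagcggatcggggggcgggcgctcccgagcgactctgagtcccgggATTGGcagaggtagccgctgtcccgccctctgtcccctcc
Srebf2, chr15:82147019-82147318, plus strand: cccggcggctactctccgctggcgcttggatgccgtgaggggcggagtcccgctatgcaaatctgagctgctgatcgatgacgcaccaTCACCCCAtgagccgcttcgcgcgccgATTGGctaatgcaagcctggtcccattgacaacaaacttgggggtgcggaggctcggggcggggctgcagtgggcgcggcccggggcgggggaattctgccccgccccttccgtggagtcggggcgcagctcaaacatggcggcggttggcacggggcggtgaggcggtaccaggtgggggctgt
Insig1, chr5:28071162-28071461, plus strand: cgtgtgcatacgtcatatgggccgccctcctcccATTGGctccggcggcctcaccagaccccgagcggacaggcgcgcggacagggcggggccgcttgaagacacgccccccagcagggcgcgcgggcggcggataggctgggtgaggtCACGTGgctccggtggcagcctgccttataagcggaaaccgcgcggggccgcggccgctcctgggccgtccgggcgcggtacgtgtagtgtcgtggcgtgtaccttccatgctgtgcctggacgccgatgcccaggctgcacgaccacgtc
In the Hmgcs1 promoter all 3 sterol element cores match at 1 place that begins 137 bases before the start site. The Srebf2 promoter matches TCACCCCA 162 bases before the start site and neither of the 9-letter cores. The Insig1 promoter holds none of the 3 in this window and has CACGTG 101 bases before the start site. Promoters of 5 of the 8 members were in the table, those of Idi1 and Lss besides these. TCACNCCAC was in 1 of the 5 (Hmgcs1) and in 1.24% of all 32851 promoters of this length, TCACCNCAC in 1 of the 5 (Hmgcs1) and in 1.32%, TCACCCCA in 2 (Hmgcs1 and Srebf2) and in 1.56%, and CACGTG in 1 (Insig1) and in 7.15%. TCACCCCA and CACGTG were picked from these promoters, so their share among the 5 follows from that choice. Of 20 promoters of 17 synthesis genes, TCACNCCAC and TCACCCCA were each in 1, TCACCNCAC in 2 and CACGTG in 3. CCAAT was in all 5 member promoters and in 37.4% of all promoters, and GGGCGG, the Sp1 box, in all 5 and in 35.7%. The palindrome TCACGTGA was in none of the 5 and in 0.974% of all promoters. These matches are descriptions of letters, not of binding.

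Depth was between 4167117 and 9507424 fragments per library, recovered from the deposited scaled counts. The 10 AT2 markers summed to between 106046 and 158210 FPKM. Markers of 3 basal cell genes summed to at most 0.0876 FPKM, with Krt5 and Krt14 at 0 in every library. Of the T, NK and B cell markers, summing to between 0.709 and 3.16 FPKM, Cd3e, Cd3d, Cd8a and Nkg7 were at 0 in every library, and Cd79a, a B cell gene, made up nearly all of the sum. Macrophage markers summed to 13.6 FPKM for KO replicate 1 and to between 7.13 and 8.16 FPKM in the other libraries, nearly all of it Cd68, with Marco at 0. Fibroblast and smooth muscle markers summed to between 15.7 and 40.3 FPKM, endothelial markers to between 0.318 and 1.94 FPKM and ciliated cell markers to between 34.7 and 48.1 FPKM. The ciliated sum was nearly all Tppp3 and Dynlrb2, with Foxj1 at 0 to 0.487 FPKM and Ccdc113 at 0 in every library. Club cell markers summed to between 812 and 1325 FPKM and AT1 cell markers to between 620.5 and 963 FPKM. The AT1 sum was nearly all Ager and Aqp5. In KO replicate 1, where it was highest, Rtkn2, Pdpn, Hopx and Clic5 lay below both WT values and Cav1 above. The same held in KO replicate 2 for all of these but Hopx, which lay between the WT values there. The 10 fast skeletal muscle markers summed to 1263 FPKM for KO replicate 1 and to at most 10.5 FPKM in each other library, and the AT2 sum was lowest in that library. The largest part of the AT2 sum was Sftpc, at 54458 FPKM in KO replicate 1 and 87684 to 101544 FPKM elsewhere. Sftpa1, Sftpd, Lamp3, Lyz2, Nkx2-1 and Slc34a2 were also lowest in KO replicate 1. Sftpb was not, and Abca3 and Napsa were highest there. The part of these differences in any result below was not tested, and fewer cells of a type cannot be told apart from less RNA per cell. Whether the paired libraries of a group represent different animals is not labelled; p-values then reflect library-to-library spread alone, which may be technical.

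All 8 members were well expressed. In WT their mean levels ran from 27.6 FPKM for Lss to 105 FPKM for Hmgcs1, above 80.3% and 96.4% of the 11055 genes tested, whose median was 10.3 FPKM. By mean WT level per length the order was Hmgcs1, Idi1, Insig1, Fdps, Srebf2, Sqle, Fdft1 and Lss. Idi1, Insig1 and Fdps were neighbours whose WT values overlapped, and Hmgcs1, at 101 FPKM in its lower WT library, overlapped Idi1 at 102 FPKM in its higher. The WT values of Srebf2, Sqle, Fdft1 and Lss did not overlap one another. By KO-labelled means the order differed only in that Fdps came before Insig1, but neither KO-labelled library had that order: Srebf2 was above Insig1 in KO replicate 1, and Idi1 was above Hmgcs1 and Sqle above Srebf2 in KO replicate 2.

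None of the 8 members passed the test between the groups. With limma on log2(FPKM + 1), 0 of 8 had an adjusted p under 0.05, beside 0% of the 11055 genes tested; 535 of those had an unadjusted p under 0.05, none of them a member. edgeR's quasi-likelihood test on the fragments also called 0 of 8, beside 0% of 11705 genes, of which 372 had an unadjusted p under 0.05. In DESeq2 none of the 8 was called either, beside 0.0457% of 15326 genes. The 6 enzymes each had a log2 difference (KO-labelled minus WT) above 0, from 0.14 for Fdps to 0.38 for Fdft1 (Lss at -0.01 with edgeR on fragments), while Insig1 and Srebf2 each stood at -0.21. The median over the 8 was 0.23, beside 0.03 over all genes tested, and it was 0.10 without KO replicate 2. Of the 11055 genes tested, 5984 had a limma log2 difference above 0 and 5071 below, the background for the direction counts of lists below. In FPKM, both KO-labelled values lay above both WT values for 4 members (Hmgcs1, Fdft1, Sqle and Lss), where 20% of all genes tested did so, and below both for 1 (Srebf2), where 15.1% did so. In fragments scaled to library size alone (CPM) they lay above for 3 (Hmgcs1, Fdft1 and Sqle), where 16.4% of genes did so, and below for 0, where 17.1% did so. With 2 libraries against 2, an exact permutation test of 1 gene cannot give a two-sided p under 0.333.

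**Figure D1:**
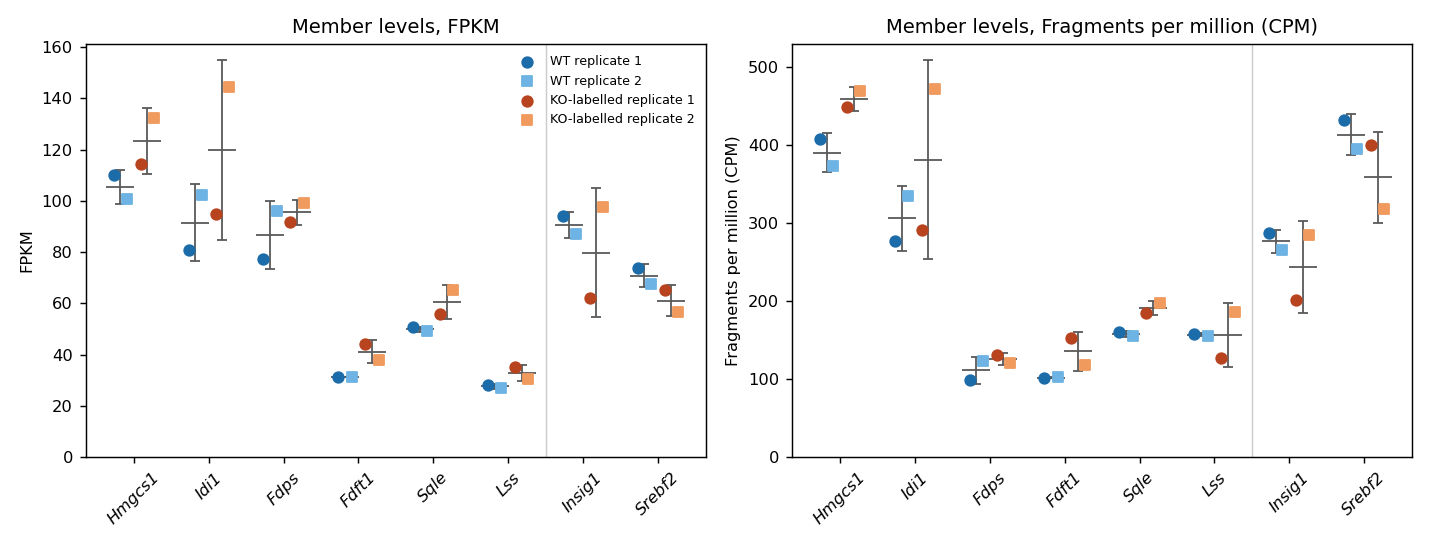
Level of each member in the 4 libraries as FPKM (left) and as CPM (right), each axis starting at 0; dark bars give the mean and SD of the 2 libraries of a group. Fdft1 and Sqle stand higher in both KO-labelled libraries on both scales, Idi1 and Insig1 are wide apart within the KO-labelled pair, and Lss separates the groups in FPKM only.

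Of the mevalonate arm, Hmgcs1 encodes the cytosolic synthase that makes HMG-CoA from acetoacetyl-CoA (ENSMUSG00000093930, chromosome 13, 119690379 to 119708260, plus strand; coordinates here and below are from GENCODE M21 on GRCm38). It was at 110.2 FPKM and 101 FPKM in the WT libraries, against 114 FPKM for KO replicate 1 and 132 FPKM for KO replicate 2. The groups did not overlap, but the gap between WT replicate 1 and KO replicate 1 was small beside that between the KO-labelled libraries. Group levels were 105 ± 6.75 FPKM in WT and 123 ± 12.9 FPKM in KO (SD, n = 2 each), a log2 difference of 0.22 (SE 0.195, 95% interval -0.26 to 0.70, limma adjusted p = 0.948). Without KO replicate 2 the difference was 0.12. In fragments, which had a similar difference of 0.23 with edgeR, the gene stood at 407 and 373 CPM in WT and 448 and 470 CPM in KO replicates 1 and 2. Its promoter, shown above, matches all 3 overlapping sterol element cores at 1 place. TCACCCCA, 1 of the 3, was picked after the promoters had been read.

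Idi1 encodes the isomerase that interconverts the 2 five-carbon isoprene units (ENSMUSG00000058258, chromosome 13, 8885501 to 8892451, plus strand). It was at 80.9 (WT replicate 1) and 102 (WT replicate 2) FPKM, compared with 94.97 (KO replicate 1) and 145 (KO replicate 2) FPKM. KO replicate 2 was the highest of the 4 libraries, and KO replicate 1 lay between the WT values. The log2 difference was 0.36 (SE 0.27, 95% interval -0.30 to 1.03, limma adjusted p = 0.948), or 0.06 when KO replicate 2 was left out and 0.66 when KO replicate 1 was left out. Idi2, its close relative, was listed at 0 in all 4 libraries.

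Fdps, the synthase of farnesyl diphosphate (ENSMUSG00000059743, chromosome 3, 89093588 to 89101959, minus strand), had values of 77.5 and 96.2 FPKM in the WT pair, with KO replicate 1 at 92.0 FPKM and KO replicate 2 at 99.0 FPKM. WT replicate 1 was the low library, and the other 3 lay close together. The log2 difference was 0.14 (SE 0.205, 95% interval -0.36 to 0.65, limma adjusted p = 0.969), and without WT replicate 1 it was -0.01, the opposite direction. The 413 fragments of Fdps in WT replicate 1 were the fewest of any member in any library (exact Poisson 95% interval 374 to 455, counting error only). Of its 100-base transcript stretches 38.2% also occur in transcripts of Gm43738, Gm3571 or Gm5873, and 31.8% of those of Idi1 occur in Gm13502 or Gm35570, so how reads were shared out could change the values of both.

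The sterol arm opens with Fdft1, which encodes squalene synthase (ENSMUSG00000021273, chromosome 14, 63145150 to 63179578, minus strand). It was at 31.2 FPKM and 31.4 FPKM in the WT libraries, against 44.3 FPKM for KO replicate 1 and 37.9 FPKM for KO replicate 2. The WT libraries were nearly equal, and both KO-labelled libraries lay above them, KO replicate 1 the further. In CPM it was at 101 and 102 in WT, 153 in KO replicate 1 and 118 in KO replicate 2, the same order. Group levels were 31.3 ± 0.164 FPKM in WT and 41.1 ± 4.53 FPKM in KO (SD, n = 2 each), 1.30-fold on the FPKM + 1 scale. The log2 difference of 0.38 (SE 0.201, 95% interval -0.12 to 0.87) had the smallest unadjusted p of the members, 0.11, with a limma adjusted p of 0.948, and the edgeR estimate was 0.41. It held its direction without each library in turn, between 0.27 and 0.49. In the deposited table Fdft1 shares a locus with Ctsb, so its value is uncertain where the 2 genes' reads could be split, and 3.06% of its stretches occur in Gm6781.

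Sqle encodes squalene epoxidase, which makes the first oxygenated intermediate and is a well-known control point of the arm (ENSMUSG00000022351, chromosome 15, 59315077 to 59331192, plus strand). It was at 50.7 (WT replicate 1) and 49.2 (WT replicate 2) FPKM, compared with 55.9 (KO replicate 1) and 65.2 (KO replicate 2) FPKM. Both KO-labelled values were above both WT values, here with KO replicate 2 the further, the reverse of Fdft1. Group levels were 49.9 ± 1.07 FPKM in WT and 60.5 ± 6.59 FPKM in KO (SD, n = 2 each), with a log2 difference of 0.27 (SE 0.196, 95% interval -0.21 to 0.75, limma adjusted p = 0.948), or 0.16 without KO replicate 2. In CPM the values were 160.3 and 155 in WT and 185 and 197 in KO replicates 1 and 2, and the edgeR estimate was 0.27.

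Lss encodes lanosterol synthase, which closes the sterol rings (ENSMUSG00000033105, chromosome 10, 76531588 to 76557138, plus strand). In FPKM it was at 28.3 and 26.97 in WT and at 35.1 and 30.5 in KO replicates 1 and 2. Read in this way the groups did not overlap, with a log2 difference of 0.24 (SE 0.203, 95% interval -0.26 to 0.74, limma adjusted p = 0.948). In fragments it was at 158 and 155 CPM in WT and at 127 and 186 CPM in KO replicates 1 and 2, so that KO replicate 1 was the lowest library and not the highest. The edgeR estimate was -0.01, so the FPKM difference had no counterpart in the fragment test, which differs in unit, scaling and model. Without KO replicate 1 the FPKM difference was 0.14.

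Of the regulators, Srebf2 encodes SREBP2 itself (ENSMUSG00000022463, chromosome 15, 82147181 to 82205379, plus strand). It was at 73.9 and 67.6 FPKM in the WT pair, with KO replicate 1 at 65.3 FPKM and KO replicate 2 at 56.7 FPKM. In FPKM both KO-labelled values lay below both WT values, with a narrow gap between WT replicate 2 and KO replicate 1. In CPM the values were 431 and 394 in WT and 399.6 and 317 in KO replicates 1 and 2, and the groups overlapped, as they did with equal FPKM totals. Group levels were 70.8 ± 4.51 FPKM in WT and 61.0 ± 6.06 FPKM in KO (SD, n = 2 each), and the log2 difference was -0.21 (SE 0.196, 95% interval -0.70 to 0.27, limma adjusted p = 0.948). Without KO replicate 2 it was -0.11. Srebf2 thus lay on the other side of 0 from the 6 enzymes, and no difference between it and them was tested.

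Insig1 encodes a protein that retains SCAP and the SREBPs in the endoplasmic reticulum (ENSMUSG00000045294, chromosome 5, 28071363 to 28078662, plus strand). It was at 94.1 FPKM and 87.1 FPKM in the WT libraries, against 62.1 FPKM for KO replicate 1 and 97.7 FPKM for KO replicate 2. KO replicate 1 was the lowest library and KO replicate 2 the highest, so the groups overlapped. The log2 difference was -0.21 (SE 0.264, 95% interval -0.86 to 0.43, limma adjusted p = 0.963); leaving out KO replicate 1 gave 0.11, the opposite direction. Relative to the WT mean, Insig1 stood at -0.54 (log2) in KO replicate 1, where Fdft1 stood at 0.49, the widest spread of members in 1 library.

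The 2 KO-labelled libraries thus differed in which members stood high. Hmgcs1, Idi1, Fdps, Sqle and Insig1 were higher in KO replicate 2, whereas Fdft1, Lss and Srebf2 were higher in KO replicate 1, both in FPKM. Averaged over the 8 members, the deviation from each gene's own mean on the log2 scale was -0.09 and -0.06 in the WT libraries, 0.001 in KO replicate 1 and 0.15 in KO replicate 2.

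**Figure D2:**
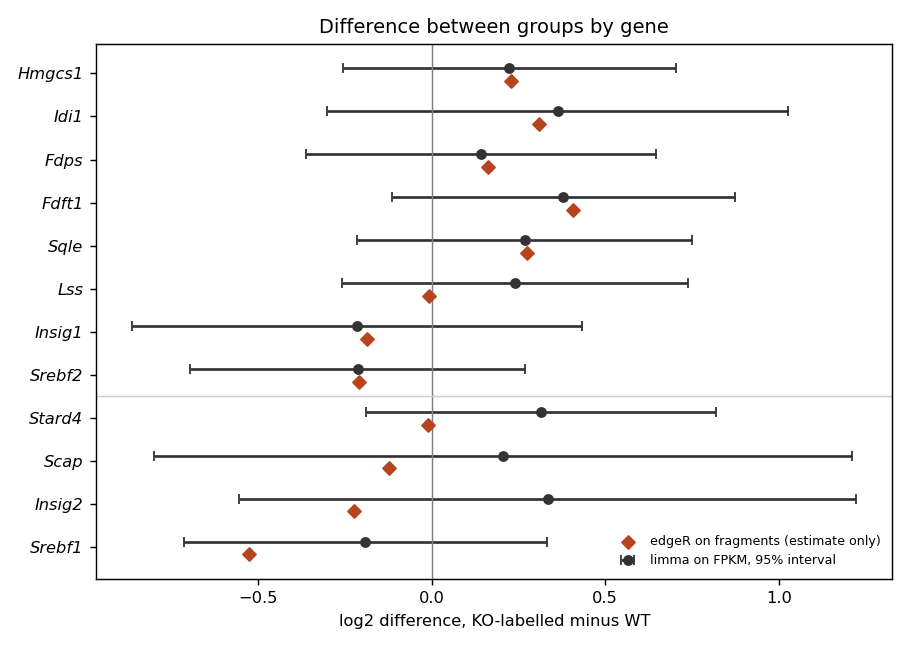
Log2 difference between KO-labelled and WT libraries for the 8 members (above the line) and 4 other genes of sterol control and transport: black points with bars are limma estimates on FPKM with 95% intervals, and diamonds are edgeR estimates on fragments. Every interval holds 0, and the 2 estimates part for Lss, Stard4, Scap, Insig2 and Srebf1.

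FPKM and fragments gave different pictures for some of these genes, and for those the FPKM that 1 fragment was worth also differed between libraries. Relative to WT and to the library's median gene, the FPKM per fragment of Lss was 1.66-fold in KO replicate 1 and 0.893-fold in KO replicate 2. A ratio at least as far from WT as that of Lss in KO replicate 1 was found for 5.96% of 11012 genes tested there. Scap stood at 1.74-fold, Stard4 at 1.82-fold, Srebf1 at 1.53-fold and Insig2 at 2.62-fold in the same library, and between 0.833-fold and 1.04-fold in KO replicate 2. Among the other members, Idi1 had a log2 ratio of 0.21 and Fdps of -0.07 in KO replicate 1, and Hmgcs1, Sqle, Fdft1, Insig1 and Srebf2 lay within 0.02 of 0 in both KO-labelled libraries. For these 5 the choice of unit made little difference to the estimate. The transcript lengths behind the FPKM are not known here, and why the ratios differ was not tested.

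**Figure D3:**
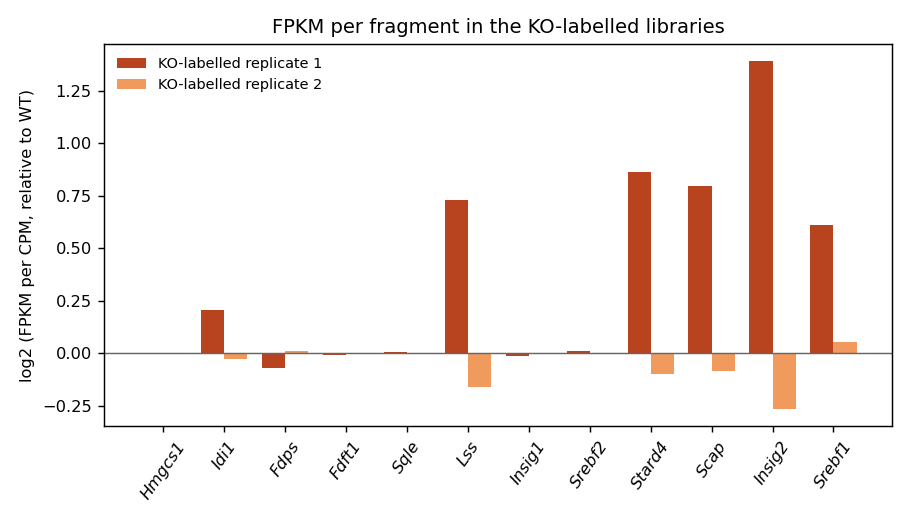
Log2 of FPKM per CPM in each KO-labelled library, relative to the WT mean and to the median tested gene of that library, for the 8 members and 4 other genes. Lss, Stard4, Scap, Insig2 and Srebf1 stand at 0.61 or more in KO replicate 1, while Hmgcs1, Fdft1, Sqle, Insig1 and Srebf2 lie near 0.

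The other enzymes of the pathway did not share a direction. Both arms together comprise 22 listed genes, of which Msmo1 was not analysed here and Idi2 was below the filter. Of the 14 tested enzymes that are not members 7 had a log2 difference above 0 and 7 below, with a median of -0.01, 0 passed the limma test, and 3 lay above and 2 below both WT values in FPKM, which are about the shares of all genes tested (20% and 15.1%). Mvk, which encodes mevalonate kinase, was at 20.9 and 14.3 FPKM in the WT pair, with KO replicate 1 at 10.5 FPKM and KO replicate 2 at 14.3 FPKM, a difference of -0.47 (limma adjusted p = 0.948) that was -0.21 without WT replicate 1. Cyp51, the lanosterol demethylase, was at 30.9 FPKM and 31.0 FPKM in the WT libraries, against 31.4 FPKM for KO replicate 1 and 39.5 FPKM for KO replicate 2. Hsd17b7, a later enzyme of the sterol arm, was at 15.3 (WT replicate 1) and 17.1 (WT replicate 2) FPKM, compared with 17.0 (KO replicate 1) and 9.06 (KO replicate 2) FPKM, and without KO replicate 2 its difference of -0.35 turned to 0.07. By arm, the median log2 difference was 0.18 over 8 tested genes of the mevalonate arm and 0.06 over 12 of the sterol arm, the latter -0.04 with edgeR on fragments.

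**Figure D4:**
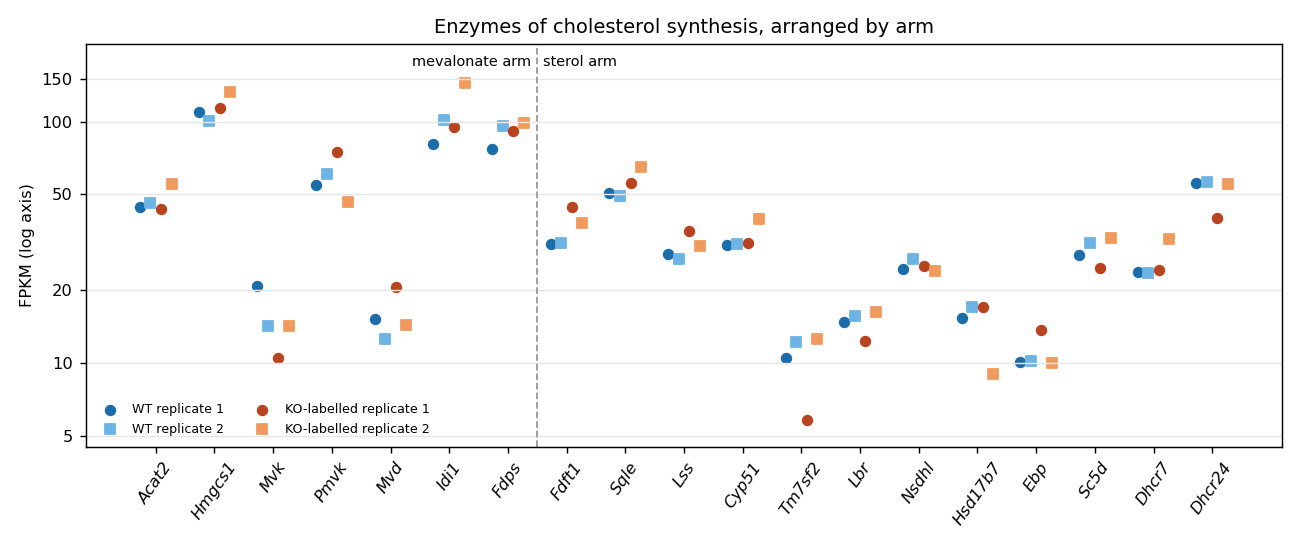
FPKM (log axis) of tested enzymes of cholesterol synthesis in each of the 4 libraries, with the mevalonate arm left and the sterol arm right of the dashed line. Hmgcs1, Idi1 and Fdps are the most abundant per length, and in most enzymes the libraries of the 2 groups are interleaved.

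Among the 7 genes that encode or control the SREBPs, Srebf2 and Insig1 included, 4 had a difference above 0 and 3 below (median 0.10), and none passed the limma test. With edgeR on fragments the median was -0.19, with 2 above 0 and 5 below. Scap, the escort, was at 27.9 and 26.9 FPKM in the WT pair, with KO replicate 1 at 49.3 FPKM and KO replicate 2 at 20.3 FPKM, a difference of 0.21 that was -0.41 without KO replicate 1. Insig2, the second retention protein, was at 19.6 FPKM and 23.4 FPKM in the WT libraries, against 39.2 FPKM for KO replicate 1 and 18.9 FPKM for KO replicate 2, and its difference of 0.33 was -0.22 with edgeR. Srebf1, whose SREBP1 product favours fatty acid genes, was at 94.9 (WT replicate 1) and 100.1 (WT replicate 2) FPKM, compared with 97.1 (KO replicate 1) and 74.8 (KO replicate 2) FPKM. In fragments both KO-labelled values of Srebf1 lay below WT, at 206 and 212 CPM against 311 and 289 CPM, with an edgeR estimate of -0.52 (adjusted p = 0.999). Mbtps2, the site-2 protease that frees SREBP domains, was at 5.06 and 5.57 FPKM in the WT pair, with KO replicate 1 at 7.92 FPKM and KO replicate 2 at 9.05 FPKM. It had the widest log2 difference of the 7, at 0.59 (SE 0.248, limma adjusted p = 0.948), or 0.23 with edgeR. In CPM Mbtps2 was at 25.3 and 26.3 in WT, 17.5 in KO replicate 1 and 43.6 in KO replicate 2. KO replicate 1 was thus the lowest library in fragments, and the groups overlapped. Its FPKM per fragment, relative as above, was 2.33-fold in KO replicate 1. Scap, Srebf1 and Mbtps2 each share a locus with another gene in the table, so their values are uncertain where reads could be split.

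Sterol uptake and transport were led by Npc2, the lysosomal cholesterol carrier, at 757 FPKM in both WT libraries and in KO replicates 1 and 2 at 890 and 869 FPKM (log2 difference 0.22, limma adjusted p = 0.948). Stard4, a sterol transfer protein gene, was at 18.2 (WT replicate 1) and 18.3 (WT replicate 2) FPKM, compared with 24.1 (KO replicate 1) and 21.8 (KO replicate 2) FPKM, a difference of 0.31 that was -0.01 with edgeR. Tmem97, a sterol-responsive membrane protein gene, was at 36.9 and 35.0 FPKM in the WT pair, with KO replicate 1 at 28.2 FPKM and KO replicate 2 at 32.4 FPKM, a difference of -0.24 (-0.22 with edgeR). Of 9 tested genes on this list 7 had a difference above 0 and 2 below (median 0.08, or -0.01 with edgeR), and none passed.

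For efflux, 4 of 5 tested genes had a difference above 0 (median 0.28, or 0.14 with edgeR) and none passed. Abca1, the cholesterol exporter, was at 6.96 FPKM and 5.30 FPKM in the WT libraries, against 9.43 FPKM for KO replicate 1 and 8.94 FPKM for KO replicate 2 (log2 difference 0.52, SE 0.256, limma adjusted p = 0.948; edgeR 0.55). Rxra, a partner of the LXR sterol receptors, had a difference of 0.28 (edgeR 0.14). Nr1h2, which encodes LXR beta, stood at 0.38, and at -0.17 with edgeR on fragments. Abcg1, Abcg5 and Abcg8 were below the filter. Of 5 tested genes of esterification and oxysterols, 3 had a difference above 0 (median 0.12) and none passed; Cyp27a1, a sterol hydroxylase, rested on 2 and 5 fragments in WT and 23 and 16 in KO replicates 1 and 2, in a locus that holds 5 genes. Ces1d and Nceh1, both ester hydrolase genes, had differences of 0.18 (edgeR 0.31) and -0.19 (edgeR -0.18).

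Genes of sterol-regulated degradation had a median of -0.03 over 8 tested, 3 above 0 and 5 below, with Ufd1l at 0.23 (edgeR 0.20) and Rnf145 at -0.14 (edgeR -0.04). The isoprenoid branch, which uses farnesyl diphosphate, had 6 of 12 tested genes above 0 and 6 below (median 0.01). Its smallest p values belonged to Nus1, a subunit of the dolichol-making enzyme, at 0.56 (edgeR 0.20), and to its partner Dhdds, at -0.39 (edgeR -0.17), the opposite direction. The FPKM per fragment of Nus1 was 1.89-fold in KO replicate 1, and in CPM the groups overlapped for both genes. Rabggtb stood at 0.37 (edgeR 0.48). Of 11 tested fatty acid genes that SREBP1 favours, 8 had a difference above 0 and 3 below (median 0.04). Fasn, the fatty acid synthase, was at 715 (WT replicate 1) and 709.9 (WT replicate 2) FPKM, compared with 461 (KO replicate 1) and 613 (KO replicate 2) FPKM, a difference of -0.42 (edgeR -0.27). Mid1ip1, an activator of acetyl-CoA carboxylase, stood at -0.51 (edgeR -0.30) and Acaca, that carboxylase, at 0.31 (edgeR 0.07). No gene of these lists passed the limma test.

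Likeness to the members was measured as the root mean square distance, over the 4 libraries, between a gene's log2 deviations from its own mean and the average of the 8 members. Of the other genes listed, the nearest were Mbtps1 (the site-1 protease, 0.05), Vcp (0.06) and Cyp51 (0.06), and 152, 221 and 307 of the 11055 genes tested lay at least as close as these. The farthest were Scap (0.49), Nr1h3 (0.433) and Hsd17b7 (0.432). Among the members themselves Sqle and Hmgcs1 lay nearest the average, both at 0.07, and Insig1 the farthest at 0.26. The average was nearly flat, from -0.09 in WT replicate 1 to 0.15 in KO replicate 2. A gene that hardly changes therefore lies near it, and a gene with wide spread lies far. Each member is also part of the average it is set against. With 4 libraries that share depth and scaling, the distance is a description only.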

How the data were processed

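RNA of AT2 cells was profiled in 4 libraries; the labels' protocols give 1 µg of input RNA, Ribo-Zero depletion, a stranded TruSeq kit and 150 cycles of sequencing. The submitters' processing notes name HISAT2 2.0.4 and mm10, and also cutadapt 1.9.3 and Cuffdiff 2.2.1 beside Cufflinks; parameters, annotation release and the handling of multiply matching reads: not given in the sources used here. Per gene and for protein-coding genes only, the authors' table holds FPKM, per the file headers. The deposited estimated counts are multiples of 1 constant per library, and after division by that constant the share of positive values that were whole (within 0.05) was 91.0% to 92.6%; these recovered fragments gave CPM and, rounded, entered edgeR and DESeq2.

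Groups follow the sample titles. As the main test, log2(FPKM + 1) values entered limma-trend (R 4.3.3, limma 3.58.1), a scale which understates changes of low genes, over genes with at least 1 FPKM in at least 2 libraries, Benjamini-Hochberg adjusted at 0.05; edgeR 4.0.16 and DESeq2 1.42.0 were alternatives. The step was tested on simulated data whose planted changes were much larger than the members' differences. How it behaves for differences of the members' size was not tested. The replicate libraries differed by more than sampling noise (chi-square per degree of freedom 4.9 for WT and 43.3 for KO). Members, gene lists and tests were chosen with earlier results of these data known. Named genes were the 8 members, Scap, Insig2 and Srebf1, up to 3 per list by smallest p, the 3 nearest and farthest by likeness, and Fbxo45 and Fbxo46; some genes that this rule names are not reported here, though their lists' counts hold them. Other alternatives were the pseudocount, filter, scaling, variance trend, replicate block and leaving out each library; the CPM comparison of groups was chosen after seeing the data.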

Additional observations from a re-analysis of the deposited data

How the results depend on the processing

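No member passed the threshold under any alternative run, and Hmgcs1, Sqle, Fdft1, Idi1 and Srebf2 kept their direction under all of them. The filter, variance trend and replicate block settings cannot change a member's limma estimate, so only the other settings bear on direction. The number of genes called over all genes was 0 with limma, 5 with edgeR without a filter, 7 with DESeq2, and between 0 and 134 when each library was left out (3 without WT replicate 2, 134 without KO replicate 2); none was a member or a listed pathway gene. On fragments, directions reversed for Lss (edgeR -0.0084, with DESeq2-type size factors -0.0015, with no filter -0.0097, DESeq2 -0.0040), Insig2 (-0.22, -0.22, -0.23, -0.22), Nr1h2 (-0.17, -0.17, -0.17, -0.17), Scap (-0.12, -0.12, -0.12, -0.12) and Stard4 (-0.011, -0.0041, -0.013, -0.0066), in the same order of settings. The change of unit, scaling and model goes together there, and the cause was not tested.

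The replicate block, fitted as an alternative, called 0 genes. With each replicate number present in both groups, a block cannot change a log2 difference. The members' unchanged estimates and their median of 0.23 are therefore no check of stability. The numbers are not said to pair animals, and the deviations of same-numbered libraries correlated at 0.0257. When each library was left out in turn, log2 differences ranged from -0.012 to 0.30 for Fdps, -0.54 to 0.11 for Insig1, -0.20 to 0.46 for Fbxo45, -0.042 to 0.23 for Fbxo46, -0.77 to 0.069 for Hsd17b7, -0.17 to 0.84 for Insig2, -0.56 to 0.17 for Nceh1, -0.23 to 0.77 for Nr1h3, -0.41 to 0.83 for Scap, -0.078 to 0.53 for Ufd1l and -0.030 to 0.20 for Vcp. The members' median ranged from 0.10 to 0.23 there. The lone library of a group is then assumed to vary like the other pair.

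Medians over lists moved as follows, in the order edgeR, edgeR with DESeq2-type size factors, edgeR with no filter and DESeq2: SREBP control -0.19, -0.18, -0.19 and -0.18; sterol arm -0.036, -0.029, -0.036 and -0.031; efflux 0.14, 0.15, 0.14 and 0.14. Sterol uptake was at -0.011, -0.013 and -0.0066 with edgeR, edgeR with no filter and DESeq2. With equal library totals the mevalonate arm was at 0.24 and the fatty acid genes at 0.098, and with median-ratio scaling at 0.14 and 0.0014. The median over all genes tested moved too, from 0.035 in the main fit to 0.088 and 9.8e-05 under these scalings. With no filter, esterification was at -0.0998. Leaving out each library gave medians from -0.17 to 0.12 for SREBP control, -0.040 to 0.12 for fatty acid genes, -0.26 to 0.10 for the isoprenoid branch, 0.10 to 0.17 for the mevalonate arm, 0.20 to 0.37 for efflux and -0.14 to 0.17 for degradation. Members with both KO-labelled values below WT numbered 0 with equal library totals (12.3% of all genes tested), 0 in CPM (17.1%) and 1 in FPKM (15.1%). Leaving out each library, which sets a single value against a pair, gave 1 to 2 below and 4 to 7 above. Over all genes tested the share above was then 30.4% to 45.4% (45.4% without KO replicate 1, where 7 members were above) and the share below 22.2% to 38.9%. The shallowest library, WT replicate 1, held 413 to 1797 fragments per member.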
